A study of Mus musculus with 4 samples.

Results

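The genes described here are 54 genes of DNA replication and S phase. They were chosen by name: each probe annotated to one of them with a value on all 4 arrays was taken, and the probes of a gene were averaged. Of the 54 genes, 50 had such values, out of 8676 named genes measured on all arrays. Gins1, Gins2, Rfc3 and Rfc5 were not analysed here. The 50 genes rested on 1 probe in 32 cases and on several probes in 18.

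The study used the mouse fibrosarcoma cell line RIF-1, whose tumour of origin was induced by radiation, and asked how its RNA changes when RNA interference lowers Bre1a (gene Rnf20) or Bre1b (gene Rnf40). These proteins pair to form the ubiquitin ligase of histone H2B. Each knockdown was measured on 2 two-colour arrays, once against RIF-1 cells left without knockdown and once against cells whose mock knockdown was directed at GFP, a gene foreign to mouse cells. Knockdown RNA carried the dye Cy5 and control RNA the dye Cy3 on all 4 arrays, so no dye swap was made and a dye bias of a gene cannot be told apart from a difference between knockdown and control. The labels name no RNA interference reagent, dose or duration. All groups are of a single cell line, and no label says whether the RNAs came from separate cultures. The spread behind a p-value here may therefore be of technical origin only.

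Before S phase, the origin recognition complex (Orc proteins) marks replication origins, and Cdc6 and Cdt1 load the Mcm helicase onto them, a step called licensing that geminin (Gmnn) blocks once S phase has begun. The kinases Cdc7, with its activator Dbf4, and cyclin E (Ccne1, Ccne2) with its partner kinase then start synthesis. Cdc45 and the GINS proteins switch the helicase on, polymerases copy the strands, and ligase and flap nuclease join the pieces of the lagging strand. Many of these genes are transcribed by the E2F factors as cells leave G1, and cultured tumour cells use them in every cycle.

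Each value is the log2 of knockdown over control RNA, so that 0 is no difference and positive values are higher in the knockdown. The arrays hold 38784 spots each, of which 19874 to 22255 had a value. Means are given ± SD over the 2 arrays of a knockdown (n = 2), and this SD includes the difference between the controls. A gene is written as risen or fallen where limma, fitted to all 8676 genes with a term for the control, gave an adjusted p under 0.05. With that term, a gene's own part of the test's spread is how far the difference between the controls disagrees between the knockdowns. It does not measure the agreement of the 2 arrays of a knockdown, so a gene with a wide SD can be called. Rnf20 was at -1.60 against no knockdown and -1.35 against mock on the Bre1a arrays, and Rnf40 at -1.49 and -1.23 on the Bre1b arrays, so each target was lower on both arrays of its own knockdown. A ratio between RNAs of 1 line holds no level, so the identity of the cells could not be read from markers. Of markers fixed for other cell types, 0 of 7 leukocyte, 0 of 4 endothelial and 3 of 6 epithelial genes had values, against 9 of 10 mesenchymal genes. The Bre1a and Bre1b comparisons share their kinds of control, so their values are given side by side and not correlated.

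After Bre1a knockdown, replication genes were higher than in the controls. Of the 50 measured genes, 21 rose and 2 fell, that is 42% and 4%, while over all 8676 genes 21.1% rose and 19.9% fell. Their median log2 ratio was 0.19, beside 0.03 over all genes, and 40 of the 50 lay above 0. Counts differed by step: all 3 genes of the single-strand binding protein and all 4 of the chromatin and histone supply group rose. Of the 5 genes of nucleotide supply and the 5 of origin recognition 0 rose. These groups are small, and differences among steps were not tested. In the further list given below, 3 of 6 nucleotide supply genes rose with Bre1a and 1 fell, while 0 of 4 polymerase genes rose. The largest called differences were those of Ccne2 and Slbp, at 150.1% and 147% of control.

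These calls depend on the control term. Without it limma called 0 of the 50 genes for Bre1a (13 at an unadjusted p under 0.05, lowest adjusted p = 0.0892) and 0.0115% of all genes in each direction, and with the arrays scaled to 1 spread 4 replication genes were called higher and 0 lower. With arrays centred on their medians 14 of the 50 were called higher, in place of 21, and 2 lower. Over all genes the split of 1828 higher and 1723 lower became 1307 and 1870 with arrays centred on their medians and 539 and 1065 with arrays scaled.

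After Bre1b knockdown, replication genes were called in both directions. In this comparison 10 of the 50 rose and 11 fell, or 20% and 22%, against 32.3% and 28.2% of all genes, so that both shares lay below the background. The median was -0.015, beside 0.016 over all genes, with 25 genes above 0 and 25 below. E2f2 (64.0% of control), Tyms (69.4%) and Pold2 (70.7%) fell, while Orc2 (155%), Orc6 (143%) and Slbp (130.1%) rose. Without the control term limma called 0 of the 50 (13 at an unadjusted p under 0.05, lowest adjusted p = 0.0593), with 0.426% of all genes higher and 1.44% lower.

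**Figure D1:**
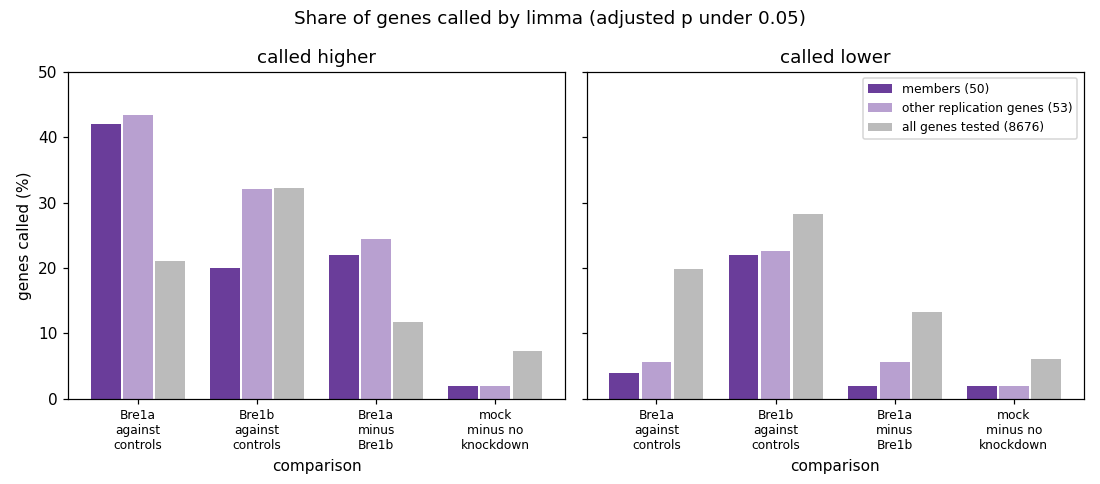
Percentage of genes called higher (left) or lower (right) by limma in each of 4 comparisons, for the 50 measured replication genes, 53 other replication genes and all 8676 genes tested. In the Bre1a comparison 42% of the replication genes rose against 21.1% of all genes, and in the Bre1b comparison 20% rose against 32.3%.

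The median of the 50 genes was 0.16 against no knockdown and 0.23 against mock for Bre1a, where 38 and 43 genes lay above 0. For Bre1b it was -0.074 and 0.078, with 17 and 27 genes above 0. All genes tested had medians of 0.017, 0.041, 0.049 and -0.003 on these 4 arrays. Both Bre1a arrays therefore stood above both Bre1b arrays in this median, and the Bre1b arrays fell on either side of 0. By step, polymerase genes had medians of 0.084 and 0.24 for Bre1a and -0.15 and -0.27 for Bre1b, against no knockdown and mock. Helicase activation genes had 0.13 and 0.18 for Bre1a and -0.16 and 0.037 for Bre1b. The median of the nucleotide supply genes was near 0 for Bre1a (-0.038 and 0.0097) and lower for Bre1b (-0.14 and -0.35). Single genes of this step lay on both sides of it. Rrm2 was at 0.37 and 0.41 for Bre1a and at 0.27 and 0.92 for Bre1b. Dut was at -0.39 and -0.28 for Bre1a and at -0.097 and -0.82 for Bre1b.

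**Figure D2:**
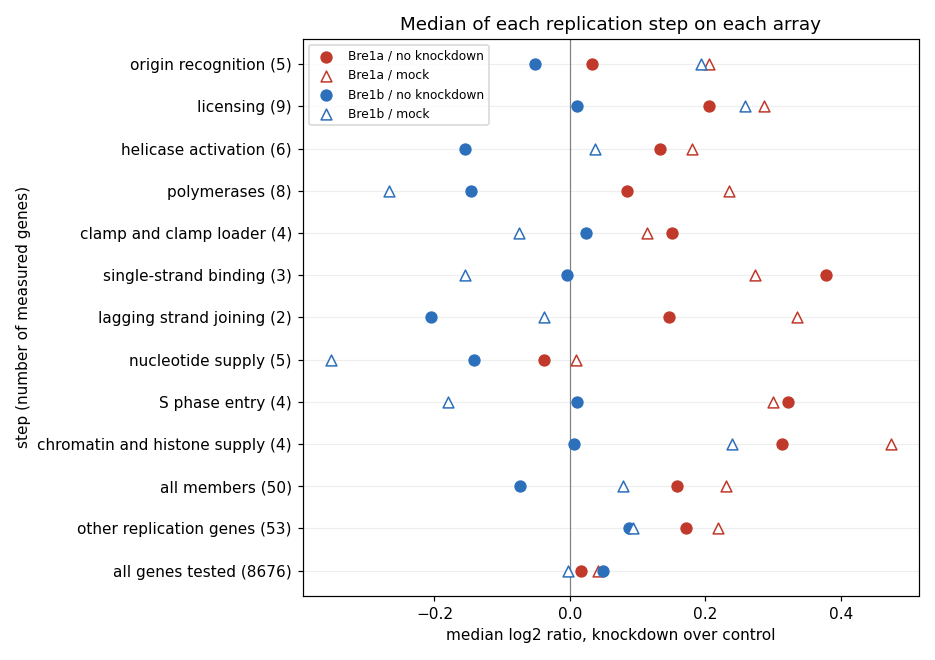
Median log2 ratio of knockdown over control (horizontal axis) of the measured genes of each replication step, on each of the 4 arrays, with all 50 genes, 53 other replication genes and all 8676 genes in the last rows. Circles are arrays against no knockdown and triangles arrays against mock. For polymerases both Bre1a medians (0.084 and 0.24) lie above 0 and both Bre1b medians (-0.15 and -0.27) below it.

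Origin recognition genes showed the reverse order of the knockdowns in 2 cases. Orc2, a core subunit of the complex, was at 0.13 and 0.21 on the Bre1a arrays and at 0.54 and 0.72 on the Bre1b arrays, in each case first against no knockdown and then against mock, an order kept below. Orc6, the smallest subunit, was at 0.077 and 0.22 for Bre1a and at 0.50 and 0.54 for Bre1b. Both genes were higher on the Bre1b arrays than on the Bre1a arrays without overlap, as were 26% of all genes. Both rose after Bre1b knockdown (0.63 ± 0.13 and 0.52 ± 0.02, limma adjusted p = 0.0101 and 0.0112). For Bre1a they did not pass (adjusted p = 0.0765 and 0.091). On 1 array the value of Orc6, which has a single probe, equals a number that many spots of its array share.

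The probe of Orc3, another subunit, gave -0.22 and -1.32 for Bre1a and -0.38 and -3.28 for Bre1b. Its 2 values for Bre1b differ by 2.905, the widest gap between arrays of a knockdown among the 50 genes, although limma called it lower after Bre1b knockdown (-1.83 ± 2.05, adjusted p = 0.0458). A further Orc3 probe, with no value on 1 array and so left out, read -0.35 for Bre1a against mock and -0.89 and -1.96 for Bre1b. Orc1, a subunit that binds ATP, and Orc5 lay between -0.19 and 0.32 on all arrays and were not called in any comparison.

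Licensing genes were above 0 on average in all 9 cases after Bre1a knockdown, as were 53.7% of all genes. Of the 9, 4 rose (44.4%, against 21.1% of all genes), all of them subunits of the Mcm ring. Mcm5 was at 0.28 and 0.63 on the Bre1a arrays and at -0.21 and 0.24 on the Bre1b arrays. It rose with Bre1a (0.46 ± 0.24, limma adjusted p = 0.0243) and did not pass with Bre1b (0.017 ± 0.320, adjusted p = 0.765). Mcm3 (0.20 and 0.48 for Bre1a, 0.34 and 0.39 for Bre1b) and Mcm4 (0.38 and 0.29, then 0.45 and 0.29) were above 0 on all 4 arrays and rose in both comparisons, with means of 0.34 and 0.33 for Bre1a and 0.36 and 0.37 for Bre1b. Over all genes, Bre1a lay above without overlap in 23.3% and Bre1b in 26%. The knockdowns overlapped in Mcm3 and Mcm4. They did not overlap in Mcm5, Mcm6 and Mcm7, where Bre1a lay above, nor in Mcm2, where Bre1b lay above. Of these subunits limma called the difference between the knockdowns in Mcm5 (adjusted p = 0.0451) and not in Mcm6 (0.0551), Mcm7 (0.126) or Mcm2 (0.267), and differences among subunits were not tested.

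Mcm6 was at 0.15 and 0.19 for Bre1a and at -0.16 and -0.08 for Bre1b, as the mean of 3 probes, and was not called against the controls. Mcm7 rose with Bre1a (0.28 ± 0.05, adjusted p = 0.0353) and Mcm2 was called in neither. Cdt1, the loader of the ring, rose with Bre1b (0.31 ± 0.15, adjusted p = 0.0181) and was at 0.14 ± 0.21 with Bre1a (adjusted p = 0.0915). The difference between the knockdowns was not called (adjusted p = 0.12). Geminin (Gmnn), its inhibitor, was at 0.062 and 0.10 for Bre1a and -0.091 and -0.28 for Bre1b and was not called. Cdc6, with 3 probes, was at 0.25 and 0.32 and at -0.058 and 0.26, also without a call.

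Among genes that switch the helicase on, Cdc45, Gins4 and Dbf4 rose after Bre1a knockdown and the GINS subunit gene Gins3 fell in both comparisons. Cdc45 was at 0.22 and 0.17 for Bre1a and at -0.043 and -0.14 for Bre1b. Of its 2 probes 1 sat, on the Bre1a array against mock, at the value that many spots of that array share. Its call with Bre1a was close to the threshold (limma adjusted p = 0.0476). Gins4 was at 0.36 and 0.19 for Bre1a and at -0.048 and -0.068 for Bre1b. In both genes every Bre1a value was above 0 and every Bre1b value below it, as in 5.29% of all genes. The differences of Cdc45 and Gins4 between the knockdowns did not pass (limma adjusted p = 0.0563 and 0.0651). Gins3, a partner of Gins4 in the same complex, was at -0.42 and -0.10 and at -0.34 and -0.008, and overlapped between knockdowns. Mcm10, which helps to start the helicase, had the highest single value of the 50 genes on the Bre1a arrays, 0.90 against no knockdown, but 0.42 against mock and -0.15 and 0.24 for Bre1b, and was not called in any comparison. The kinase gene Cdc7 lay between -0.22 and 0.11, also without a call, while its activator Dbf4 was at 0.043 and 0.55 for Bre1a and at -0.25 and 0.27 for Bre1b and rose with Bre1a (0.30 ± 0.36, limma adjusted p = 0.0286).

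**Figure D3:**
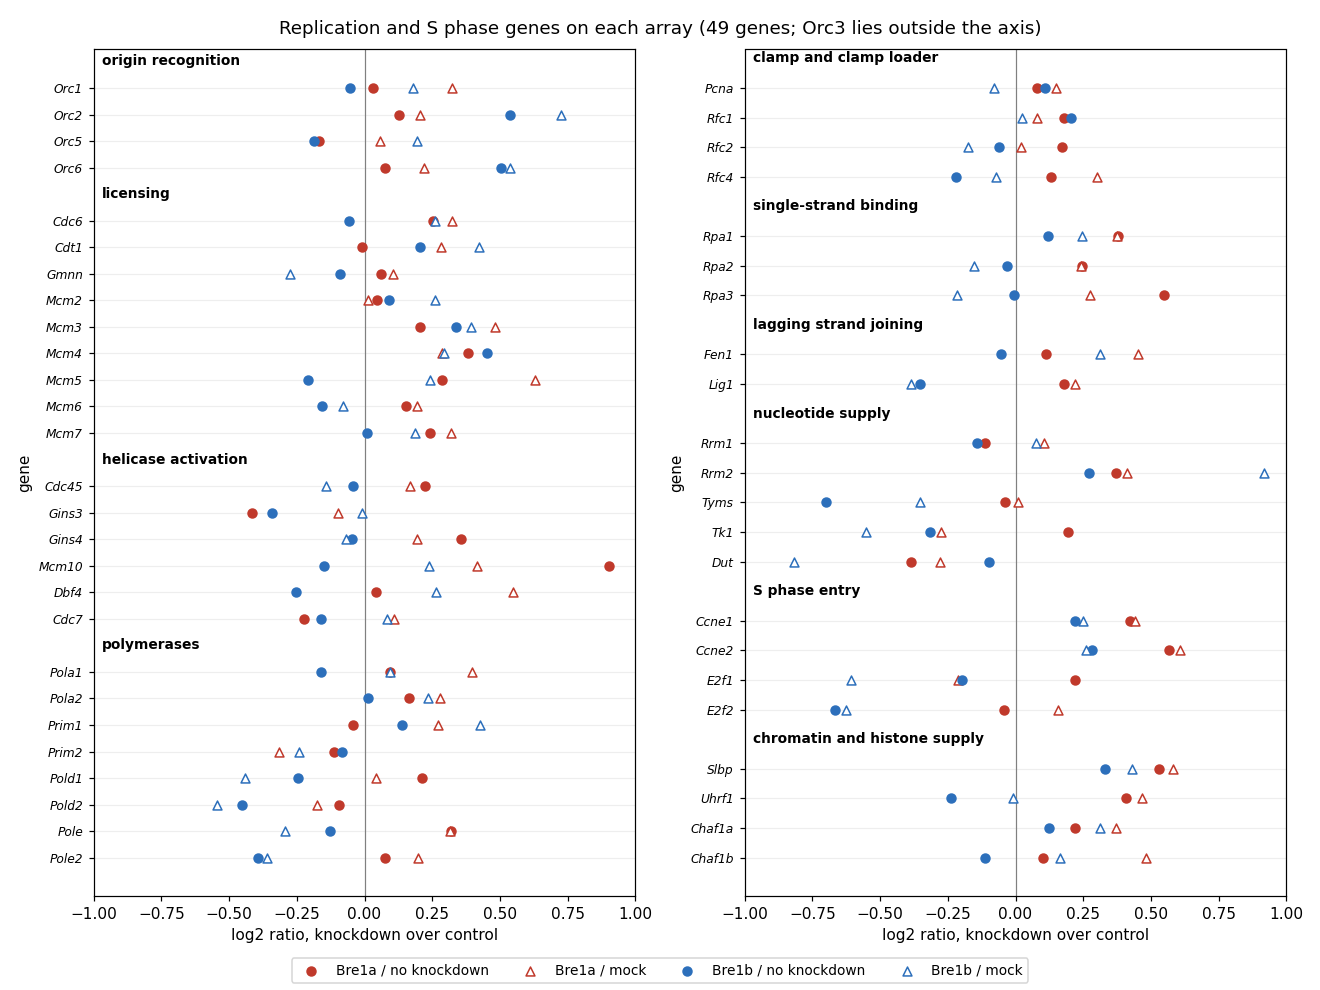
Log2 ratio of knockdown over control (horizontal axis) for 49 replication genes on each of the 4 arrays, grouped by step, with Bre1a in red, Bre1b in blue, circles for no knockdown as control and triangles for mock. Orc3, with values down to -3.28, is not drawn. In Pole2, Pold1 and Lig1 all red points lie right of 0 and all blue points left of it.

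Of the 8 polymerase genes 4 were called for the difference between the knockdowns, all higher with Bre1a (50%, against 11.7% of all genes). Pole, the catalytic subunit of the leading strand polymerase, was at 0.32 and 0.32 on the Bre1a arrays and at -0.13 and -0.29 on the Bre1b arrays. Its partner Pole2 was at 0.075 and 0.20 for Bre1a and at -0.39 and -0.36 for Bre1b. The lagging strand polymerase genes moved alike in order: Pold1, its catalytic subunit, was at 0.21 and 0.043 and at -0.24 and -0.44, and Pold2, an accessory subunit, at -0.093 and -0.18 and at -0.45 and -0.55. In all 4 genes, which were picked by their call, both Bre1a values lay above both Bre1b values, as in 23.3% of all genes.

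Against the controls Pole rose with Bre1a (0.32 ± 0.0035, limma adjusted p = 0.0373) and was at -0.21 ± 0.12 with Bre1b (adjusted p = 0.0528). Pole2 (-0.38 ± 0.02), Pold1 (-0.34 ± 0.14) and Pold2 (-0.50 ± 0.07) fell with Bre1b, with adjusted p from 0.0103 to 0.0147, and were not called with Bre1a. Genes of the primase complex, which lays down the starting primers, were not called for the difference. Within each control Bre1a was above Bre1b in Pola1 (by 0.26 and 0.30) and Pola2 (0.15 and 0.044) and below it in Prim1 (-0.18 and -0.15) and Prim2 (-0.029 and -0.075). Pola1 and Pola2 rose with Bre1a (0.24 and 0.22), the primase subunit gene Prim1 rose with Bre1b (0.28 ± 0.20, adjusted p = 0.0184) and Prim2 fell in both (-0.21 and -0.16).

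With Bre1a 1 of 4 clamp and clamp loader genes rose (25%), near the 21.1% of all genes that did. So did 3 of 3 single-strand binding genes and 1 of 2 lagging strand joining genes. Pcna, the sliding clamp, is counted among the 4 but cannot be read here. Its only probe sat on all 4 arrays at the value that many spots of the array share, which may hold no measured difference. Of the clamp loader genes, Rfc4 was at 0.13 and 0.30 for Bre1a and at -0.22 and -0.073 for Bre1b, and rose with Bre1a (0.22 ± 0.12, limma adjusted p = 0.0404), with 1 spot at the shared value. Rfc2 was at 0.17 and 0.018 and at -0.062 and -0.18, with opposite signs and no call, and Rfc1 was above 0 on all 4 arrays, again with no call.

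The genes of the single-strand binding protein RPA all rose with Bre1a and none was called with Bre1b. Rpa1, the large DNA-binding subunit, was at 0.38 and 0.37 and at 0.12 and 0.24. Rpa2 was at 0.25 and 0.24 and at -0.031 and -0.15. Rpa3, the small subunit, was at 0.55 and 0.27 and at -0.005 and -0.22. In each of the 3 genes both Bre1a values exceeded both Bre1b values, as in 23.3% of all genes. The difference between the knockdowns was called in Rpa3 (limma adjusted p = 0.039) and not in Rpa1 (0.13) or Rpa2 (0.0581). Means of Rpa1, Rpa2 and Rpa3 with Bre1a were 0.38 ± 0.0028, 0.24 ± 0.0032 and 0.41 ± 0.19 (limma adjusted p = 0.0288, 0.0451 and 0.0242).

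Lig1, the ligase that seals the lagging strand, was at 0.18 and 0.22 for Bre1a and at -0.35 and -0.39 for Bre1b over 3 probes, each of which had that order of signs. It fell with Bre1b (-0.37 ± 0.02, limma adjusted p = 0.0142) and just missed the threshold with Bre1a (0.20 ± 0.03, adjusted p = 0.0504). Fen1, the flap nuclease that acts before it, was at 0.11 and 0.45 and at -0.055 and 0.31, overlapped between knockdowns and rose with Bre1a (0.28 ± 0.24, adjusted p = 0.0301).

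The 5 nucleotide supply genes among the 54 held no call with Bre1a. With Bre1b, Tyms and Tk1, which supply thymidine nucleotides, fell. Tyms, thymidylate synthase, was at -0.038 and 0.0097 for Bre1a and at -0.70 and -0.35 for Bre1b, where its mean was -0.53 ± 0.25 (limma adjusted p = 0.0218). Tk1, thymidine kinase, was at 0.20 and -0.27 for Bre1a and at -0.32 and -0.55 for Bre1b, with a mean of -0.43 ± 0.17 (adjusted p = 0.0223). The 3 probes of Tyms disagreed in size, with Bre1b means spread over 0.96, from a probe at -1.12 on both arrays to ones near 0 against mock. A further Tyms probe, left out for want of 1 value, read -3.005 for Bre1b against no knockdown.

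The ribonucleotide reductase genes did not move with these. Rrm2, its regulated subunit, was above 0 on all 4 arrays (0.37, 0.41, 0.27 and 0.92) and was not called, and 1 of its 4 probes read 1.91 for Bre1b against mock where the others read 0.38 to 0.71. Rrm1, the large subunit, lay between -0.14 and 0.10, with the same difference of mock minus no knockdown, -0.216, on both knockdowns. Dut, which removes uracil nucleotides, was below 0 on all 4 arrays, from -0.82 to -0.10, without a call.

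Cyclin E genes rose in both comparisons, and of the E2F genes E2f1 and E2f2 fell with Bre1b. Ccne2 was at 0.56 and 0.61 for Bre1a and at 0.28 and 0.26 for Bre1b, and Ccne1 at 0.42 and 0.44 and at 0.22 and 0.25. The arrays of a knockdown lay closer together than the knockdowns did, in both genes. Means were 0.59 ± 0.03 and 0.43 ± 0.01 with Bre1a and 0.27 ± 0.02 and 0.24 ± 0.02 with Bre1b (limma adjusted p from 0.0216 to 0.0239), and the differences between the knockdowns, 0.32 and 0.20, did not pass (adjusted p = 0.0537 and 0.0878).

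E2f2, one of the activating E2F factors, was at -0.044 and 0.16 for Bre1a and at -0.66 and -0.62 for Bre1b. E2f1, its relative, was at 0.22 and -0.21 and at -0.20 and -0.61. Both fell with Bre1b (-0.64 ± 0.03 and -0.40 ± 0.29, limma adjusted p = 0.0109 and 0.012) and neither was called with Bre1a. In E2f1 the knockdowns overlapped across controls, since the values against mock lay 0.43 and 0.41 below those against no knockdown. The E2F genes outside the 54, chosen here after their values were seen, were called in both directions. E2f4, a member of the family known mainly as a repressor, was at 0.36 and 0.41 for Bre1a and at 0.51 and 0.55 for Bre1b and rose in both comparisons (limma adjusted p = 0.0241 and 0.0101). E2f7, another repressor, fell with Bre1b (-0.23 ± 0.02, adjusted p = 0.0284), and E2f5 and E2f6 were not called.

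Genes of chromatin and histone supply rose with Bre1a in 4 of 4 cases, against 21.1% of all genes. Slbp, which binds the stem loop of replication-dependent histone mRNAs, was at 0.53 and 0.58 for Bre1a and at 0.33 and 0.43 for Bre1b, and rose in both comparisons (0.56 ± 0.04 and 0.38 ± 0.07, limma adjusted p = 0.0223 and 0.013). Uhrf1, which brings the maintenance DNA methyltransferase to newly copied DNA, was at 0.41 and 0.46 for Bre1a and at -0.24 and -0.011 for Bre1b, and rose with Bre1a (0.44 ± 0.04, adjusted p = 0.0282) while Bre1b was not called (adjusted p = 0.143). Its 2 probes had Bre1a means 0.41 apart, with the same sign, and read -0.15 and 0.13 for Bre1b against mock, with opposite signs. The chaperone genes Chaf1a and Chaf1b, which place histones on new DNA, rose with Bre1a (0.30 ± 0.11 and 0.29 ± 0.27) and Chaf1a with Bre1b too (0.22 ± 0.14).

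The direct difference between the knockdowns was taken within each control, where a dye bias cancels if it is equal on the arrays. Of the 50 genes, 11 were higher with Bre1a than with Bre1b and 1 was lower, or 22% and 2%, against 11.7% and 13.2% of all genes. The 11 were E2f2, Lig1, Uhrf1, Pole, Rpa3, Pole2, Pold1, Mcm5, E2f1, Pold2 and Rfc4, and the 1 was Orc2. Median differences were 0.21 over the 50 genes and 0.001 over all genes, and 38 of the 50 lay above 0. With arrays centred on their medians the called genes were 7 higher and 2 lower. Without the control term limma called 0 (11 at an unadjusted p under 0.05, lowest adjusted p = 0.246), and with arrays scaled to 1 spread 0 (13 at an unadjusted p under 0.05).

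E2f2 differed by 0.62 against no knockdown and by 0.78 against mock, at 163% of the Bre1b level. This was the largest called difference (0.70 ± 0.11, limma adjusted p = 0.0385). In this paragraph ± is the SD of the differences within each control. Unlike the SD used for a knockdown, it leaves out the difference between the controls that both knockdowns share. Lig1 differed by 0.53 and 0.61 (0.57 ± 0.05), Uhrf1 by 0.64 and 0.48 (0.56 ± 0.12) and Pole by 0.45 and 0.61 (0.53 ± 0.11). These and Rpa3 (0.55 and 0.49) and Pole2 (0.47 and 0.56) were therefore higher with Bre1a whichever control was used. Pold1 (0.46 and 0.48), Mcm5 (0.49 and 0.39), E2f1 (0.42 and 0.40), Pold2 (0.36 and 0.37) and Rfc4 (0.35 and 0.37) followed. Orc2 stood apart with -0.41 and -0.52. Adjusted p for the 12 genes ran from 0.0379 to 0.0453, all near the threshold.

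**Figure D4:**
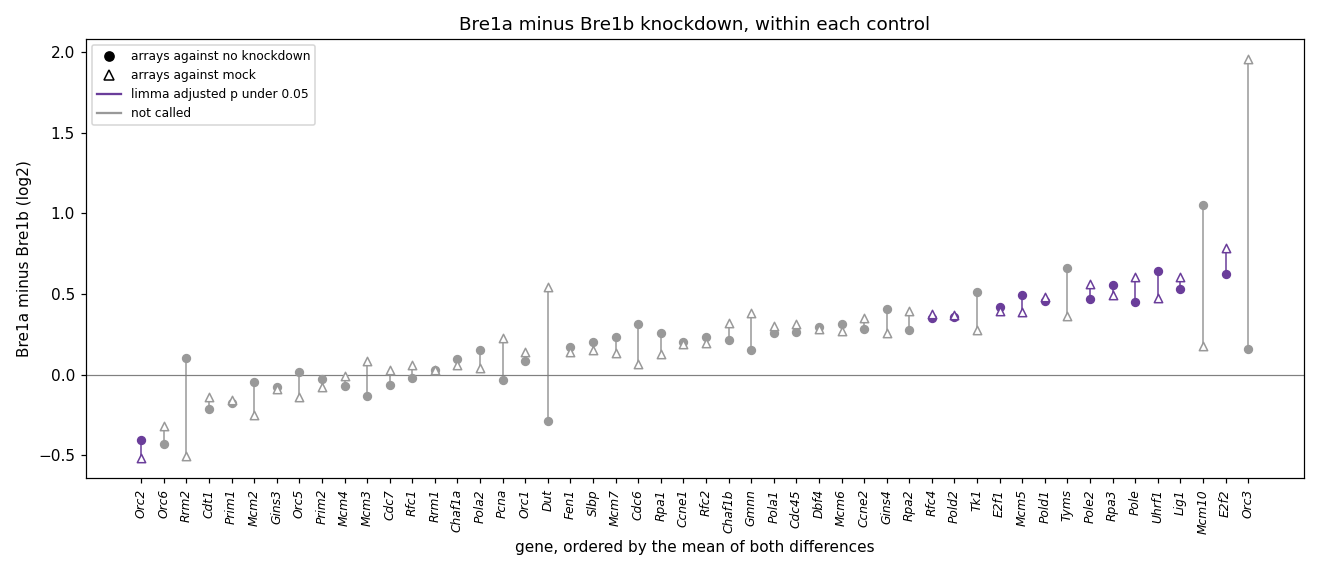
Difference of the log2 ratios of Bre1a and Bre1b knockdown (vertical axis) for each of the 50 genes, within arrays against no knockdown (circles) and within arrays against mock (triangles), with called genes in purple. Called genes lie between 0.36 and 0.70 on average, except Orc2 at -0.46, and Orc3 and Mcm10 have the widest gaps between their points, reaching 1.96 and 1.05.

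Counts without a test, taken from the same values and so no separate evidence, had the same order. Both Bre1a values exceeded both Bre1b values in 24 of the 50 genes (48%), against 23.3% of all genes, and lay below them in 3 (6%), namely Orc2, Orc6 and Mcm2, against 26%. Bre1a was above 0 on both arrays and Bre1b below 0 on both in 13 genes (26%), against 5.29% of all genes, and the opposite held in 0, against 5.54%. The 13 were Gmnn, Mcm6, Cdc45, Gins4, Pold1, Pole, Pole2, Rfc2, Rfc4, Rpa2, Rpa3, Lig1 and Uhrf1. In 7 of them limma also called the difference (14% of the 50 genes, against 2.84% of all genes). All 4 values were above 0 in 14 genes (28%, against 24% of all genes) and below 0 in 5 (10%, against 20.8%).

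Promoters of the 54 genes, whether called or not, were searched for letters of the E2F site, since E2F factors are known to transcribe many replication genes. The windows, from RefSeq (mouse GRCm38.p6), run from 250 bases before to 50 after an annotated start, and 45 of the 54 genes had at least 1, 54 windows in all. The letters searched were TTCGCGC and TTGGCGC on both strands, beside TTTGAA (the cell cycle homology region) and CCAAT. None of the 4 is contained in another, though matches can overlap. At least 1 of the E2F forms was in a window of 15 of the 45 genes (33.3%) and of 4.47% of all 27025 genes with a window. By window the shares were 29.6% of 54 and 3.89% of 32851. TTTGAA was in 16.7% of these genes' windows and 17.9% of all, and CCAAT in 55.6% and 37.4%.

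Of the 12 genes called between the knockdowns 11 had a window and 6 held an E2F form: Mcm5, Pole2, Rpa3, Lig1, E2f2 and Uhrf1. All 6 were higher with Bre1a than with Bre1b, as were all of the 12 but Orc2. They were 60% of the 10 genes called higher that had a window. Among measured genes not called higher, 8 of 33 with a window held a match (24.2%). For genes that rose with Bre1a against the controls it was 7 of 17 (41.2%), and 7 of 26 for the other measured genes (26.9%). The calls come from these same data, and the shares were not tested against each other. A match says only that the letters are there. A window of each of the 6 is given below 5′ to 3′ on the strand of the gene, with the E2F letters of either strand in capitals, to show where they sit.
Mcm5, chr8:75109259-75109558, plus strand: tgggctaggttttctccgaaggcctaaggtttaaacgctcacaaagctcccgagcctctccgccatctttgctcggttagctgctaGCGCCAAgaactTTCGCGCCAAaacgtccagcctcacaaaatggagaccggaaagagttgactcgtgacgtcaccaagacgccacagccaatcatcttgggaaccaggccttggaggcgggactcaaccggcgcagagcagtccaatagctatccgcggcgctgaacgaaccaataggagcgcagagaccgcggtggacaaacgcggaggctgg
Pole2, chr12:69228141-69228440, minus strand: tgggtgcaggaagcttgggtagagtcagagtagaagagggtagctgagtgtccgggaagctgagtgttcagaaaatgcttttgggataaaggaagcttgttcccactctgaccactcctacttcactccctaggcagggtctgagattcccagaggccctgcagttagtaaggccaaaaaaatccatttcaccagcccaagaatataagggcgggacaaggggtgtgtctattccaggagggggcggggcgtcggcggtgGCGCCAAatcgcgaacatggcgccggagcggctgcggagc
Rpa3, chr6:8259092-8259391, minus strand: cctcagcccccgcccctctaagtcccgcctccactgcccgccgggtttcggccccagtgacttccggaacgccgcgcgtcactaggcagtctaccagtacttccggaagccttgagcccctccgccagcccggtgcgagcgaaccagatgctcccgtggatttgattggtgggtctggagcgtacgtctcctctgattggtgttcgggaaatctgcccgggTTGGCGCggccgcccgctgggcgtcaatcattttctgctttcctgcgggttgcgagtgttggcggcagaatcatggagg
Lig1, chr7:13278576-13278875, plus strand: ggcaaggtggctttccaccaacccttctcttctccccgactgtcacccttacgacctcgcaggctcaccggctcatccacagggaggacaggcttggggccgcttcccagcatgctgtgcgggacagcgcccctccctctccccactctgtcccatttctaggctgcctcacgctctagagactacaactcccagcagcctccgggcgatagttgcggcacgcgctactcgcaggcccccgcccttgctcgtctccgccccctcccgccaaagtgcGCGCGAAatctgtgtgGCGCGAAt
E2f2, chr4:136172024-136172323, plus strand: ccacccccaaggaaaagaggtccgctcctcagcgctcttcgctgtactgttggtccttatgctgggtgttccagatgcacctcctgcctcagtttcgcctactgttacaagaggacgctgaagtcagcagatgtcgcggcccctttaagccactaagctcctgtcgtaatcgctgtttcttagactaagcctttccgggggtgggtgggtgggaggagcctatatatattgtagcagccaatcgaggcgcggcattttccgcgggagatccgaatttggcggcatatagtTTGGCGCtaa
Uhrf1, chr17:56304063-56304362, plus strand: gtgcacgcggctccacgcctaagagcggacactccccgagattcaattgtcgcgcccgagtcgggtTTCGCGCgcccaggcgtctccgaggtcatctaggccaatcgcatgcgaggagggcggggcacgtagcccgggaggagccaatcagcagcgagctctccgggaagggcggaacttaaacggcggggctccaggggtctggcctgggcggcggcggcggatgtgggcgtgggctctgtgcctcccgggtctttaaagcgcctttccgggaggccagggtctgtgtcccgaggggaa

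Counted from the annotated start, the 3 matches of Mcm5 begin at -164, -152 and -149, and the last 2 overlap, so that their capitals form 1 run. The match of Rpa3 begins at -29 and that of Uhrf1 at -184. That of Pole2 begins at 10, that of E2f2 at 40 and those of Lig1 at 26 and 42, and a further Lig1 window, not printed, holds 1 match. Of the printed windows Mcm5 and Rpa3 belong to genes that rose with Bre1a, Pole2, Lig1 and E2f2 to genes that fell with Bre1b, and Uhrf1 to a gene that rose with Bre1a.

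The controls were compared through the arrays, as mock over no knockdown seen on each knockdown. Mock was the control of replicate 2 and no knockdown that of replicate 1 on both knockdowns, so the difference between controls cannot be told apart from one between replicates. Dbf4 was lower on the mock side, by -0.51 on the Bre1a arrays and -0.52 on the Bre1b arrays (limma adjusted p = 0.0475), and E2f1 was higher, by 0.43 and 0.41 (adjusted p = 0.049). Of the 50 genes limma called these 2 and no other, 2% in each direction, against 7.26% of all genes higher and 6.12% lower. With arrays centred on their medians 0 were called higher and 1 lower, and with arrays scaled to 1 spread 0 in either direction (6 at an unadjusted p under 0.05). The median of the 50 was -0.076, beside -0.011 over all genes, and 28 genes were lower on the mock side on both knockdowns (42.2% of all genes were) and 14 higher (37.9% of all genes were). A gene lower on the mock side reads higher against mock than against no knockdown, as Dbf4 did at 0.55 and 0.043 for Bre1a.

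A further 65 replication genes, not among the 54, were listed by role, and 53 were measured. With Bre1a 23 rose and 3 fell (43.4% and 5.66%, against 21.1% and 19.9% of all genes), with a median of 0.18. With Bre1b 17 rose and 12 fell (32.1% and 22.6%, against 32.3% and 28.2%), with a median of 0.10. Between the knockdowns 13 were higher with Bre1a and 3 lower (24.5% and 5.66%, against 11.7% and 13.2%). Between the controls 1 was called in each direction (1.89%, against 7.26% higher and 6.12% lower). The shares for Bre1a and for the difference were thus above the background on the higher side and below it on the lower side, as for the 50 genes. For Bre1b the rising share was at the background, where that of the 50 genes (20%) lay below it.

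Among these genes, Dna2, a nuclease and helicase of lagging strand processing, was at 1.49 and 1.75 for Bre1a and at 0.20 and 0.017 for Bre1b. It rose with Bre1a (1.62 ± 0.18, limma adjusted p = 0.022) and had the largest called difference between the knockdowns (1.51, adjusted p = 0.0382). Donson, a factor of helicase assembly, rose in both (0.74 ± 0.13 and 0.78 ± 0.21), and Msh6, a mismatch repair gene, with Bre1a (0.58 ± 0.03). Samhd1, which breaks down nucleotides, and Dtl, part of the ligase that removes Cdt1, had the opposite order. Samhd1 was at -0.27 and -0.33 for Bre1a, where it fell, and at 0.40 and 0.26 for Bre1b, where it rose. Dtl was at -0.27 and -0.11 for Bre1a and at 0.15 and 0.27 for Bre1b, again falling with Bre1a and rising with Bre1b. On 1 array a Dtl spot sat at the shared value, and its Bre1a call held in 3 of 12 alternative settings and was lost when such spots were left out (limma adjusted p from 0.0476 to 0.812 over the 12).

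Orc4, a core subunit of the origin recognition complex, was at -0.042 and 0.32 for Bre1a and at 0.44 and 0.87 for Bre1b, and rose with Bre1b (0.65 ± 0.30, limma adjusted p = 0.00959). Its difference between the knockdowns (-0.51, adjusted p = 0.0393) had the direction of that of Orc2. Timeless, which protects forks, fell with Bre1b (-0.45 ± 0.13), as did Pold4, the small subunit of the lagging strand polymerase (-0.77 ± 0.27), which also fell with Bre1a (-0.32 ± 0.24). Rbl2, a pocket protein that represses E2F targets, fell with Bre1b (-0.78 ± 0.08) and was at 0.43 and -0.08 for Bre1a. Nasp, a histone chaperone, rose in both comparisons (0.56 ± 0.43 and 0.62 ± 0.42) and was lower on the mock side (-0.60, adjusted p = 0.0475). Rrm2b, the p53-regulated reductase subunit, was higher on the mock side (0.67, adjusted p = 0.0475), and was at 0.63 and -0.089 for Bre1a and at -0.026 and -0.64 for Bre1b, with a call in opposite directions (0.27 and -0.33, adjusted p = 0.0369 and 0.0179).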

How the data were processed

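RNA of RIF-1 cells was measured on 4 two-colour arrays, 2 per knockdown, grouped by the labels. The authors deposited 1 log2 ratio per spot, Cy5 over Cy3 per the labels, with the log base read from the values. How images were read, corrected, normalized and filtered was not stated. Brightness was not analysed here, and the number of arrays limits the precision.

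Of 38784 probes 22204 had 1 gene symbol, 0 several and 16580 none, by GEO's platform annotation, with symbols checked by gene ID in a GRCm38.p6 gene table (0 changed). The 12958 named probes complete on 4 arrays were averaged into 8676 genes. Columns not mapped to a sample numbered 0. The test was limma's moderated one (version 3.58.1, R 4.3.3), two-sided and adjusted by Benjamini-Hochberg across the 8676 genes. Its model held 1 coefficient for either knockdown plus 1 for the control, which is also the replicate number of the titles. This left 1 residual degree of freedom and 1.57 prior ones. The pairing comes from the labels, and the difference between the controls seen on the Bre1a and the Bre1b arrays correlated over genes (Pearson r = 0.602), which is across genes and not independent replicates. Code was tested on simulated data.

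Spots within 0.002 of the most repeated value of an array, 702 to 843 per array, may be no measurement and were dropped only in an alternative. Members and lists were chosen with earlier results of these data known, so no list was tested. Named were up to 10 called members per comparison by size of the difference, members of opposite sign on all arrays of the knockdowns, other members by step, and up to 3 called genes per direction of the further list. Values of members outside these rules, and of Orc3's and Tyms's unused probes, were chosen after they were seen.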

Additional observations from a re-analysis of the deposited data

Results flagged for a closer look

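In 7 of the 50 genes all arrays of the 2 knockdowns lay on opposite sides of 0 and limma called the difference between the knockdowns. The differences, Bre1a minus Bre1b on the log2 scale, were 0.57 for Lig1, 0.56 for Uhrf1, 0.53 for Pole, 0.52 for Rpa3, 0.51 for Pole2, 0.47 for Pold1 and 0.36 for Rfc4. Over all genes 2.84% met both conditions, against 14% of the 50. Knockdown RNA carried Cy5 on all 4 arrays, and a part of the dye in the sides of 0 was not tested. In Uhrf1 and Rpa3 the Bre1b values nearest to 0 were -0.011 and -0.005, and the 2 Uhrf1 probes read -0.15 and 0.13 on that array. Without the control term limma called none of the 7 differences, with adjusted p from 0.246 to 0.361.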

How the results depend on the processing

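Without the control term, and so with no replicate block, limma called 1 gene higher and 1 lower for Bre1a, 37 and 125 for Bre1b and 0 between the knockdowns (1286 at an unadjusted p under 0.05), and 0 of the 50 replication genes in each direction in all 3. With arrays scaled to 1 spread 539 genes were higher and 1065 lower for Bre1a, with 4 and 0 of the 50, and 898 and 1017 for Bre1b, with 2 and 2. That setting called 0 genes between the knockdowns and 0 between the controls (2351 and 1697 at an unadjusted p under 0.05), as did the inclusion of probes with fewer than 4 values (3847 and 3541), where 1 of the 50 was lower for Bre1a. With 1 probe per gene 748 genes and 0 of the 50 were lower between the knockdowns, and 0 genes were called between the controls (3706 at an unadjusted p under 0.05). Centring called 7 of the 50 higher and 2 lower between the knockdowns and 0 higher between the controls, and the median over probes 2 lower between the knockdowns. The cause of these changes was not tested. The median difference of the 50 between the knockdowns was 0.23 without spots at the repeated value, 0.19 centred, 0.27 scaled, 0.23 with 1 probe and 0.22 with the median over probes, and their median between the controls was -0.048 scaled. Step medians for Bre1a became 0.20 for helicase activation, 0.083 for the clamp, -0.052 for nucleotide supply and 0.21 for S phase entry when centred, -0.062 for nucleotide supply when scaled and 0.29 for S phase entry with 1 probe. Between the knockdowns, lagging strand joining was at 0.34 centred, 0.38 scaled, 0.27 with 1 probe and 0.38 with the median over probes, S phase entry at 0.34 centred and 0.39 scaled, polymerases at 0.29 and chromatin and histone supply at 0.31 scaled, and licensing at 0.13 with 1 probe.

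Leaving out 1 array at a time left no room for the control term, and the lone array was assumed to vary like the other knockdown. Genes called for Bre1a then numbered 3 to 32 higher and 4 to 99 lower, for Bre1b 0 to 382 and 0 to 760, and between the knockdowns 0 to 32 and 0 to 38. Of the 50 genes 0 were called, except 0 to 1 lower for Bre1b (1 without either Bre1a array), with 1 to 8 at an unadjusted p under 0.05. Their median ran from 0.16 to 0.23 for Bre1a, -0.074 to 0.078 for Bre1b, 0.15 to 0.23 between the knockdowns and -0.089 to -0.054 between the controls. Single named genes kept their sign in all of these settings. Of 467 values under the settings that keep all arrays 129 lost their call and 2 gained one. The 467 include the differences between the knockdowns of Gmnn, Mcm6, Cdc45, Gins4, Rfc2 and Rpa2, which had no call to lose. With an array left out, nearly all calls that could be tested were lost, and the difference between the controls had no test.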
